A study of Danio rerio with 25 samples.

Results

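The cells described here were sorted from the adult zebrafish heart through an RFP gate that marks cardiomyocytes of the sox10 lineage, after cryoinjury and without injury. Some tubes also held much RNA of fibroblast and epicardial markers, as given below. Every library labelled as RFP-gate cells was used: 12 from cryoinjured hearts and 6 from uninjured hearts, which makes 18 of the 25 libraries in the series. The other 7 came from the BFP gate, 3 after cryoinjury and 4 without injury, and entered the fits below to add to the estimate of the spread. All animals carried the same pair of transgenes, a sox10:CreERT2 driver and a vmhcl:loxP-tagBFP-loxP-mCherry-NTR reporter. In this line the sox10 regulatory sequence drives a tamoxifen-dependent Cre recombinase, and the ventricular myosin promoter vmhcl drives a blue protein until Cre removes it, after which the red protein mCherry, joined to nitroreductase, is made instead. The RFP gate is thus set by past Cre activity and by activity of vmhcl, and not by sox10 at the time of sorting. Each tube held 20 sorted cells and was read with Smart-seq2, a full-length method without molecular identifiers. The labels used here give no age, sex, time after injury, tamoxifen schedule, animal or sorting day, so p-values measure the spread between tubes, which may share an animal.

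The zebrafish heart regrows muscle after cryoinjury, a freezing wound of the ventricle, mainly because surviving cardiomyocytes loosen their sarcomeres, re-enter the cell cycle and divide. Around the wound, fibroblasts and the epicardium lay down matrix, and signals such as Vegf, retinoic acid and TGF-beta act on the muscle. Sox10 is a transcription factor of the neural crest, the embryonic population that gives pigment cells, peripheral glia and, in the zebrafish, a share of the heart muscle. The comparison asks how these cells differ between injured and uninjured hearts.

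Gene names are printed as the name table lists them, in the human style for many zebrafish genes, with the Ensembl ID where several genes share a name. Levels are CPM, a gene's count scaled to a common library size with TMM, a correction for unequal library composition, and are compared between groups but not between genes. A gene was called where the adjusted p of edgeR's quasi-likelihood test was under 0.05. The test was run in 2 ways over 14853 genes: on group means only, and with the number of genes detected in each library added as a covariate.

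The number of detected genes differed widely between tubes and moved with injury. Libraries of cryoinjured hearts held counts for 3874 to 15380 genes, and those of uninjured hearts for 1226 to 11057. The means were 11020 ± 3282 genes in the cryoinjured group and 6668 ± 3526 in the uninjured group (SD, n = 12 and 6). An exact two-sided permutation test of this difference gave p = 0.0255, or 0.264 after adjustment over 31 library measures, and the ranges overlapped. Total counts were 5644279 to 11981012 per RFP-gate library, and with every library thinned to the smallest total the means were 10790 and 6500 genes. By the library numbers in the sample titles, 11 of the 12 cryoinjured tubes come before all 6 uninjured ones. The labels do not say what these numbers mark, so an effect of library order and of injury cannot be told apart. The mitochondrially encoded messages took 1.21% to 11.02% of the counts in cryoinjured libraries, with a median of 4.68%, and 2.77% to 22.9% in uninjured libraries, with a median of 11.4%. That difference had an exact permutation p of 0.0431 and 0.329 after adjustment. The range of 8000 to 12000 detected genes held 6 cryoinjured and 3 uninjured libraries, and is used below to set tubes of nearer complexity side by side. It did not make the groups equal. The cryoinjured tubes in it held 10261 to 11802 genes, with a median of 11092, and the uninjured ones 8254 to 11057, with a median of 9152.

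**Figure D1:**
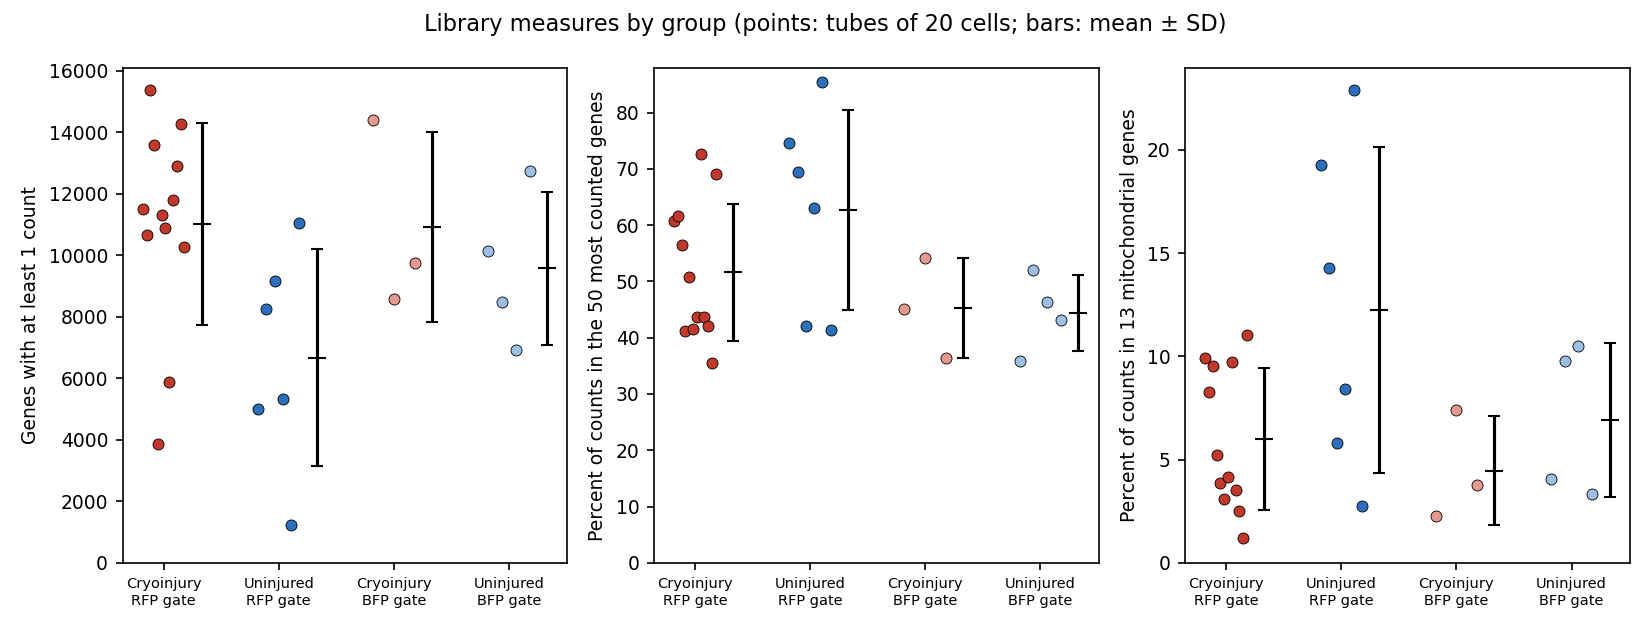
Number of genes with at least 1 count, percent of counts in the 50 most counted genes and percent of counts in the 13 mitochondrially encoded genes, each library a point and bars the mean ± SD, for the 4 groups. Cryoinjured RFP-gate libraries reach 15380 genes, against 11057 in uninjured ones, and the lowest tube of each holds 3874 and 1226 genes.

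Markers of heart muscle were present in every tube. MYL7, the atrial-type regulatory myosin light chain that zebrafish use in the whole heart, ranged from 275 to 90693 CPM in cryoinjured libraries, with a median of 11063, and from 3129 to 42781 CPM in uninjured libraries, with a median of 16281. The groups overlapped throughout, and the log2 fold change of 0.80 ± 0.904 (SE) had an adjusted p of 0.871 in edgeR. The tubes fell into 2 kinds by the level of a myosin heavy chain. In cryoinjured replicates 1, 2, 8 and 12 the gene listed as MYH7 (ENSDARG00000079782), a ventricular-type chain, stood at 26117 to 53551 CPM with myh6, the atrial chain, at 0 to 6.55 CPM. In the other 8 cryoinjured tubes MYH7 was at 0 to 20.8 CPM and myh6 at 239 to 4334 CPM. Among uninjured tubes, replicates 1, 2, 4 and 5 had MYH7 at 1580 to 21771 CPM and myh6 at 0 to 2.85, while replicates 3 and 6 had MYH7 at 14.0 and 86.8 and myh6 at 687 and 873 CPM. The level of MYH7 thus left a gap between 86.8 and 1580 CPM, and the tubes on either side are called low-MYH7 (8 of 12 after cryoinjury and 2 of 6 without injury) and high-MYH7. A gene listed as MYH6 (ENSDARG00000079564) stood at 19.2 to 1209 CPM in the high-MYH7 tubes after cryoinjury and at 1.74 to 351 CPM in those without injury. Neither gene was matched by name to vmhcl, so neither is shown to be the gate's own gene.

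SOX10 itself was low in both groups. It ranged from 0.0728 to 48.4 CPM in cryoinjured libraries, with a median of 1.93 and a count in all 12, and from 0 to 56.7 CPM in uninjured libraries, with a median of 5.21 and a count in 4 of 6. The groups overlapped, and the log2 fold change was −0.86 ± 1.64 (SE; edgeR adjusted p = 0.956). FOXD3, an early neural crest factor, and DCT, a melanin enzyme, had no count in any of the 18 tubes.

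Markers of other heart cells were also found. The summed level of 7 such genes, among them COL1A2, TCF21 and PDGFRA, ranged from 0 to 24733 CPM in cryoinjured libraries, with a median of 2832, and from 0 to 1104 CPM in uninjured ones, with a median of 7.75. The longer list of 35 epicardial and fibroblast genes took 1.01% ± 0.929 of the counts in cryoinjured tubes and 0.745% ± 0.961 in uninjured ones (SD, n = 12 and 6; exact permutation p = 0.589). The sum of the 7 genes moved with the level of MYH7: the 8 high-MYH7 tubes held at most 9.19 CPM after cryoinjury and 15.2 CPM without injury. Of the low-MYH7 tubes, cryoinjured replicate 5 held 6.84 CPM, the other 7 cryoinjured tubes 2144 to 24733, and the uninjured tubes 818 and 1104. Cryoinjured replicates 4, 7 and 11 held 16934, 12459 and 24733 CPM of these markers and 19859, 7866 and 1189 CPM of the cardiomyocyte markers, so these tubes go against the label of sorted heart muscle most. Leukocyte markers ranged from 0 to 1129.6 CPM in cryoinjured tubes and from 0 to 1632 in uninjured ones, endothelial markers from 0 to 272 and from 16.0 to 1174, erythrocyte markers from 0 to 572 and from 0 to 79.6, thrombocyte markers from 0 to 42.5 and from 0 to 0.132, and the pigment cell markers from 0 to 31.3 against 0 in every uninjured tube. The highest pigment cell value came from MITF (ENSDARG00000037833) alone. Another gene listed as MITF (ENSDARG00000003732) had a count in 1 cryoinjured tube, at 2.37 CPM, and pmela reached 1.78 CPM. The shared name does not say which MITF gene marks pigment cells. In tubes of 20 pooled cells, fewer cells of a type and less RNA per cell cannot be told apart.

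On group means only, 1 gene was called higher after cryoinjury and 3 lower, which is 0.00673% and 0.0202% of the genes tested. With the number of detected genes in the fit, 6 were called higher and 29 lower, or 0.0404% and 0.195%. ACP5 and spint2 were called in both fits. The median log2 fold change of all tested genes was 0.75 on group means and −0.32 with detected genes in the fit. Other ways of taking complexity into account left it on either side of 0. It was 0.83 with the share of the 50 most counted genes as covariate, and 0.37 on group means in the tubes of 8000 to 12000 genes. With detected genes counted after thinning as covariate it was −0.35. In the 18 RFP-gate libraries with a slope for each injury state it was −0.69. At an unadjusted p under 0.05, 2354 genes (15.8%) lay above 0 and 165 (1.11%) below on group means, against 901 (6.07%) above and 1320 (8.89%) below with detected genes in the fit. Without uninjured replicate 5 no gene was called on group means, and without uninjured replicate 6 there were 160. Neither fit called a gene in the tubes of 8000 to 12000 genes alone. Fitting only the 18 RFP-gate libraries, where 10501 genes were tested, called 6 genes higher on group means and 1 with detected genes. It called none lower in either fit. Other tools called more on group means: limma-voom put 525 genes (3.53%) higher and none lower. DESeq2 put 834 higher, which is 6.52% of the 12799 genes to which it gave an adjusted p, and 27 lower. With detected genes in the fit limma-voom put 17 higher and none lower, and DESeq2 684 higher and 787 lower.

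The gene called higher on group means was gbp, which in the zebrafish encodes a protein that binds the kinase GSK-3 and activates Wnt signalling, a relative of the mammalian FRAT proteins. Its level in cryoinjured libraries ran from 0 to 122 CPM with a median of 17.5, and it had a count in 9 of 12. It had none in the 6 uninjured libraries, so it passed the filter on low counts through other tubes only. Against the limit that 3 counts over the uninjured group allow, its mean of 40.8 ± 44.1 CPM (SD, n = 12) was at least 693-fold higher. The edgeR adjusted p was 0.0153, and 0.0840 with detected genes in the fit. Without uninjured replicate 5, the tube of 1226 genes, the adjusted p on group means was 0.112. In the tubes of 8000 to 12000 genes, gbp had a count in 5 of 6 cryoinjured libraries and 0 of 3 uninjured ones.

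With detected genes in the fit, GJA5 (ENSDARG00000069450), zfyve16 and klhl35 were called higher. GJA5 encodes a connexin, a subunit of the gap junctions that couple heart cells electrically. It ran from 0 to 122 CPM in cryoinjured libraries, with a median of 12.3 and a count in 9 of 12, and had no count in the uninjured ones. Its mean was at least 489-fold higher after cryoinjury (edgeR adjusted p = 0.0366 with detected genes, 0.0701 on group means). The gene zfyve16, which encodes an endosomal protein with a lipid-binding FYVE domain, had a count in 11 of 12 cryoinjured libraries, at 0 to 101 CPM with a median of 5.73, and in 0 of 6 uninjured ones. It was at least 335-fold higher (edgeR adjusted p = 0.0342, and 0.0796 on group means). The gene klhl35, of the kelch-like family, had a count in 10 of 12 cryoinjured libraries, at 0 to 129 CPM with a median of 7.41, and in 0 of 6 uninjured ones. It was at least 319-fold higher (edgeR adjusted p = 0.0442, and 0.0796 on group means). For each of the 3 the cryoinjured range reached down to the uninjured level of 0. A second gene listed as GJA5 (ENSDARG00000040065) had counts in both groups, with medians of 15.5 CPM after cryoinjury and 9.07 CPM without injury (edgeR adjusted p = 0.964 and 0.962). All 3 lost the call when a single tube was left out, with highest adjusted p-values of 0.0945 for GJA5 and 0.156 for klhl35, both without cryoinjured replicate 5, and 0.0804 for zfyve16 without uninjured replicate 3. With the ratio of the 2 myosins added as a covariate, klhl35 had an adjusted p of 0.0594, and GJA5 and zfyve16 stayed under the threshold at 0.0410 and 0.0404. The other 3 genes called higher in this fit, SDK1 (ENSDARG00000062854), si:ch211-28p3.4 and si:ch211-197l9.2, fell outside the rule for named genes and are named after their values were seen. They too were at 0 in the uninjured tubes, a state shared by 1784 of the tested genes, or 12% of them. All 6, like gbp, thus passed the filter on low counts through other tubes only. For these genes a lower level and a failure to be detected in the uninjured tubes cannot be told apart.

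ANKH (ENSDARG00000071724), a membrane protein that controls pyrophosphate outside the cell, came next by p on group means. It had a count in 9 of 12 cryoinjured libraries, with a median of 13.7 and a highest value of 105 CPM, and in 0 of 6 uninjured ones, and did not pass (edgeR adjusted p = 0.0628, and 0.151 with detected genes).

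The genes called lower rested on few uninjured tubes. ACP5, the tartrate-resistant acid phosphatase of osteoclasts and macrophages, had no count in the 12 cryoinjured libraries and ran from 0 to 139.6 CPM in the uninjured ones, with a median of 0.0770 and counts in 3 of 6. It was at least 807-fold lower after cryoinjury (edgeR adjusted p = 0.0153 on group means and 0.00611 with detected genes). The gene spint2, a Kunitz-type inhibitor of serine proteases, had a count in 1 of 12 cryoinjured tubes, at 0.391 CPM, and in 1 of 6 uninjured tubes, at 156 CPM (edgeR adjusted p = 0.0407 and 0.00611). The gene dbpa, a clock-controlled transcription factor, had counts in 3 of 12 cryoinjured tubes, up to 0.437 CPM, and in 2 of 6 uninjured tubes, up to 261 CPM, and was called on group means only (edgeR adjusted p = 0.0178, and 0.681 with detected genes). Without uninjured replicate 6, the tube with the count, spint2 had adjusted p-values of 0.538 and 0.865. Of the 29 genes lower with detected genes in the fit, 19 had a count in a single uninjured library and none in more than 3, and the highest tube was uninjured replicate 3 for 16 genes and replicate 6 for 12. These genes had too few uninjured tubes with a count for the rule on named genes and were named after their values were seen. The 6 lower genes that the rule did name, GSK3B, ifi27.6 and KPNA1 on group means and RBM12, PDIA4 and krt8 with detected genes, did not pass in either fit. GSK3B, a kinase of the Wnt pathway, was at 0 to 35.7 CPM with a median of 6.54 in cryoinjured tubes and at 0 to 1076 CPM with a median of 3.36 in uninjured ones, where the highest value was replicate 5. KPNA1, an importin, had medians of 25.8 and 26.4 CPM, and ifi27.6, of an interferon-induced family, 0.519 and 21.4 CPM. RBM12, an RNA-binding protein, had medians of 0 and 5.01, PDIA4, a folding enzyme of the endoplasmic reticulum, 19.4 and 42.5, and krt8, an epithelial keratin also found in zebrafish heart, 2691 and 1364 CPM, each with the cryoinjured group first and with ranges that overlapped.

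**Figure D2:**
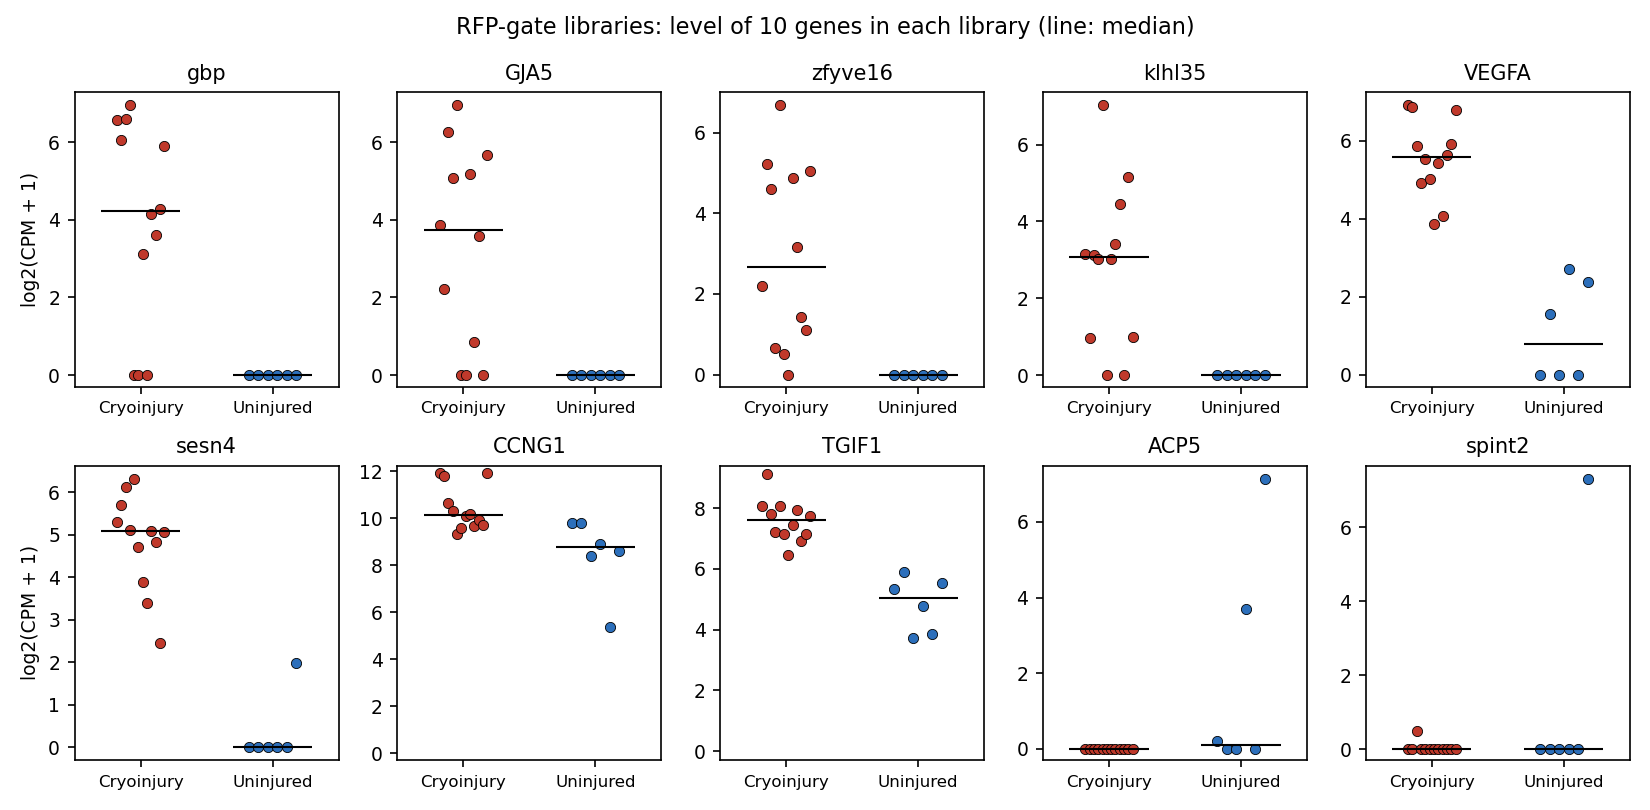
Level of 10 genes in each RFP-gate library as log2(CPM + 1), cryoinjured left and uninjured right, with a line at the median. The 4 genes gbp, GJA5, zfyve16 and klhl35 sit at 0 in all 6 uninjured tubes and spread from 0 upward after cryoinjury, VEGFA, sesn4 and TGIF1 do not overlap between groups, and ACP5 and spint2 are above 1 CPM in 2 and 1 uninjured tubes.

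The 2 groups did not overlap for 10 genes, 0.0673% of those tested, each higher in all 12 cryoinjured tubes than in any of the 6 uninjured ones. They were picked for that pattern, so their values are a description, and none passed edgeR's threshold in either fit. They were VEGFA (ENSDARG00000103542), sesn4, AGFG1, TGIF1, RASA1 (ENSDARG00000035535), SLC35B1, gna12a, WDR26 (ENSDARG00000006812), BRD2 and G3BP2 (ENSDARG00000014790). VEGFA, the growth factor that guides vessels and is known to be induced by low oxygen, ran from 13.6 to 118 CPM with a median of 46.9 after cryoinjury and from 0 to 5.53 CPM with a median of 0.987 without injury. Its mean was 29.3-fold higher in cryoinjured tubes, with an edgeR log2 fold change of 4.86 ± 1.63 (SE) and an adjusted p of 0.0912, or 4.47 ± 1.49 and 0.150 with detected genes. The stress-induced sestrin sesn4 ran from 4.46 to 78.5 CPM with a median of 32.9, against 0 to 2.95 with a median of 0, where 1 of 6 uninjured tubes had a count (edgeR adjusted p = 0.0912 and 0.0854). TGIF1, a homeobox repressor in the TGF-beta pathway, had counts in all tubes of both groups, at 86.1 to 560.3 CPM with a median of 193.2 after cryoinjury and 12.2 to 58.1 with a median of 32.9 without injury. Its mean was 6.64-fold higher (edgeR adjusted p = 0.0940 and 0.219). BRD2, a reader of acetylated histones, stood at 277 to 659.9 CPM with a median of 399.6, against 0 to 199 with a median of 148. A second gene listed as VEGFA (ENSDARG00000034700) did not follow: it ran from 5.86 to 91.6 CPM with a median of 25.1 after cryoinjury and from 0 to 195.3 CPM with a median of 47.5 without injury (edgeR adjusted p = 0.963).

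Cell cycle genes had the highest median of the lists with detected genes in the fit and were the list whose share of the counts passed. Of 64 listed genes 48 were tested, and their median log2 fold change was 2.67 on group means and 2.21 with detected genes in the fit. No member passed the adjusted threshold in either fit of edgeR. At an unadjusted p under 0.05, 24 were higher and 1 lower on group means, against 15.8% and 1.11% of all tested genes. With detected genes 17 were higher and 3 lower, against 6.07% and 8.89%. On group means limma-voom called 3 higher and DESeq2 10, against 3.53% and 6.52% of the genes given an adjusted p by each. With detected genes limma-voom called none. DESeq2 called 7 of the 48 higher and 1 lower, against 684 higher and 787 lower among all 14853 genes. Of the 61 members with a count in an RFP-gate tube, 31 had none in the 6 uninjured ones. Those of the 31 that were tested passed the filter through other tubes only. The list median and these counts rest in part on them. The list took 0.183% ± 0.0439 of the counts in cryoinjured tubes and 0.0915% ± 0.0325 in uninjured ones (SD, n = 12 and 6; exact two-sided permutation p = 0.000646, adjusted p = 0.0200). Most of that difference lay in CCNG1. This gene, cyclin G1, is a target of p53. It took 0.0862% to 0.212% of the counts in cryoinjured tubes and 0.00358% to 0.0631% in uninjured ones, without overlap. Without CCNG1 the list took 0.0512% ± 0.0235 in cryoinjured tubes and 0.0489% ± 0.0521 in uninjured ones (SD, n = 12 and 6; exact permutation p = 0.946). Uninjured replicate 5, the tube of 1226 genes, was at 0.147% there, and without it the uninjured mean was 0.0294% ± 0.0231 (SD, n = 5; exact permutation p = 0.0772). On the TMM scale CCNG1 ran from 647 to 3844 CPM with a median of 1121, against 40.2 to 883 with a median of 436, so that the groups overlapped, and it did not pass (edgeR adjusted p = 0.170, and 0.474 with detected genes).

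**Figure D3:**
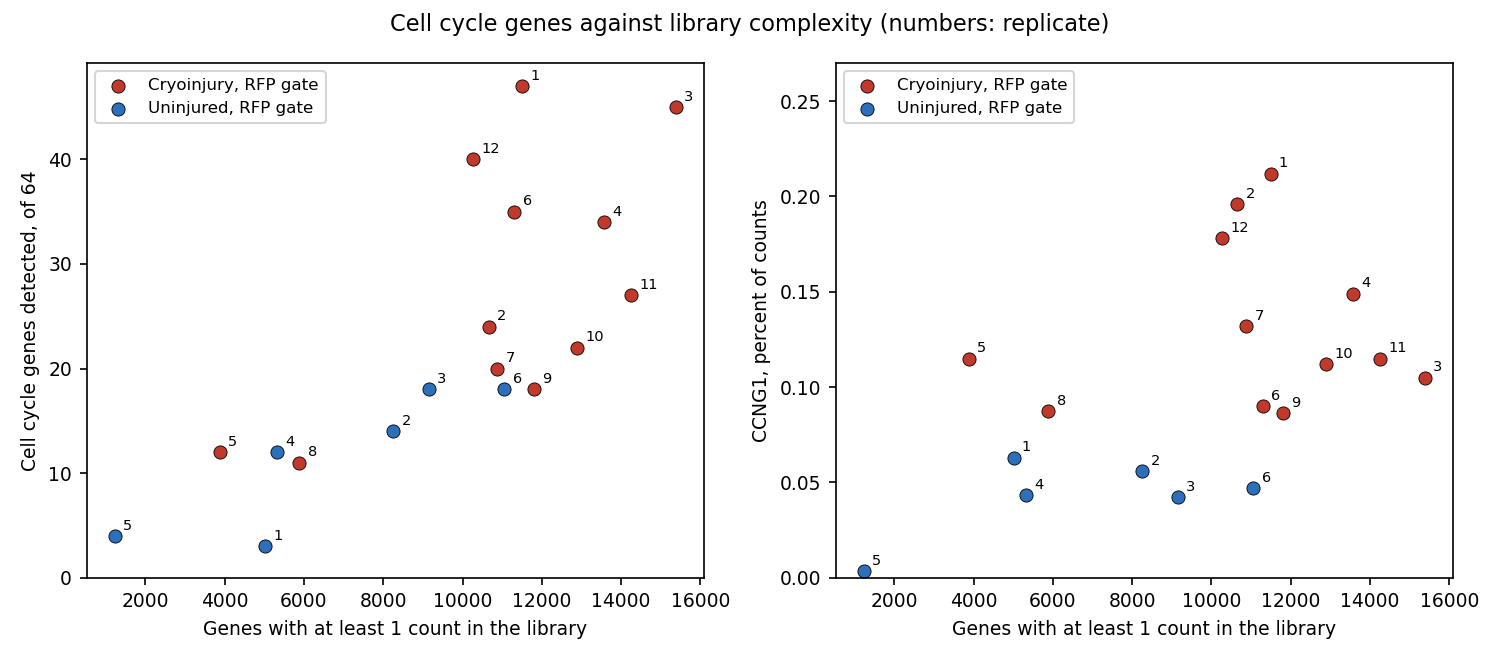
Left, number of the 64 cell cycle genes with a count against the number of genes detected in each RFP-gate library; right, percent of counts in CCNG1 against the same axis; numbers give the replicate. Cryoinjured replicates 1, 12 and 6 hold 47, 40 and 35 cell cycle genes at 10261 to 11491 detected genes, replicates 2 and 7 hold 24 and 20 in that span, and uninjured replicate 6 holds 18 at 11057, and CCNG1 lies above 0.08% in every cryoinjured tube and below 0.07% in every uninjured one.

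Many genes of DNA replication and mitosis had counts in some cryoinjured tubes and in no uninjured RFP-gate tube. Of 61 cell cycle genes with a count in any of the 18 tubes, 31 (50.8%) had none in the 6 uninjured ones, against 29.4% of all 21665 genes with a count. They include CDK1 and its cyclins CCNB1 and CCNA2, which drive entry into mitosis, plk1 and aurka, mitotic kinases, CDC20 and UBE2C, which act at its exit, mki67, a marker of cycling cells, TOP2A, and the replication genes RRM1, TYMS, MCM3 and MCM4. With 12 tubes against 6, a rarely counted gene has more chances to be seen after cryoinjury. RRM1, the large subunit of ribonucleotide reductase, came first by p in this list on group means: it had a count in 9 of 12 cryoinjured tubes, at 0 to 42.9 CPM with a median of 9.75, and was at least 226-fold higher than the limit for the uninjured group (edgeR adjusted p = 0.0796 and 0.150). CCND1, the cyclin that takes cells out of rest, came first with detected genes in the fit. It had a count in 7 of 12, up to 48.1 CPM (edgeR adjusted p = 0.0807 and 0.0548). CDK1 had a count in 7 of 12, up to 65.1 CPM, and mki67 and plk1 in 5 of 12 each, up to 9.52 and 36.3 CPM.

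These genes gathered in a few tubes. Of the 31, cryoinjured replicate 1 held 24, replicate 12 held 22, replicate 3 held 19, replicate 6 held 17, replicate 4 held 13 and replicate 2 held 10, while the other 6 cryoinjured tubes held 1 to 7. Replicates 9, 10 and 11, with 11802 to 14249 detected genes, held 3, 7 and 7 of them, fewer than replicates 1 and 12 held at 11491 and 10261 detected genes. Replicates 1 and 12 were high-MYH7 tubes, with summed cardiomyocyte markers of 123552 and 170465 CPM, fibroblast and epicardial markers of 9.19 and 2.98 CPM, leukocyte markers of 3.06 and 3.57 CPM and endothelial markers of 88.2 and 1.98 CPM. Replicates 3, 4 and 6 were low-MYH7 tubes and held 2144, 16934 and 4646 CPM of fibroblast and epicardial markers. Their leukocyte markers were at 677, 1.53 and 616 CPM and their endothelial markers at 30.9, 54.5 and 272 CPM. In replicate 2, a high-MYH7 tube, leukocyte markers were at 405 CPM and endothelial markers at 12.04 CPM. The most leukocyte markers of any cryoinjured RFP-gate tube, 1129.6 CPM, were in replicate 9, which held 3 of the 31 genes. Which cells carried the cell cycle counts was not tested. Uninjured replicates 2, 3 and 6, with 8254, 9152 and 11057 detected genes, held 14, 18 and 18 of the 64 cell cycle genes, and the 6 cryoinjured tubes of 8000 to 12000 genes held 18 to 47. As a share of all detected genes, cell cycle genes made up 0.153% to 0.409% in those cryoinjured tubes and 0.163% to 0.197% in the uninjured ones. BFP-gate tubes held 2 to 18 of the 31 genes after cryoinjury and 3 to 6 without injury.

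**Figure D4:**
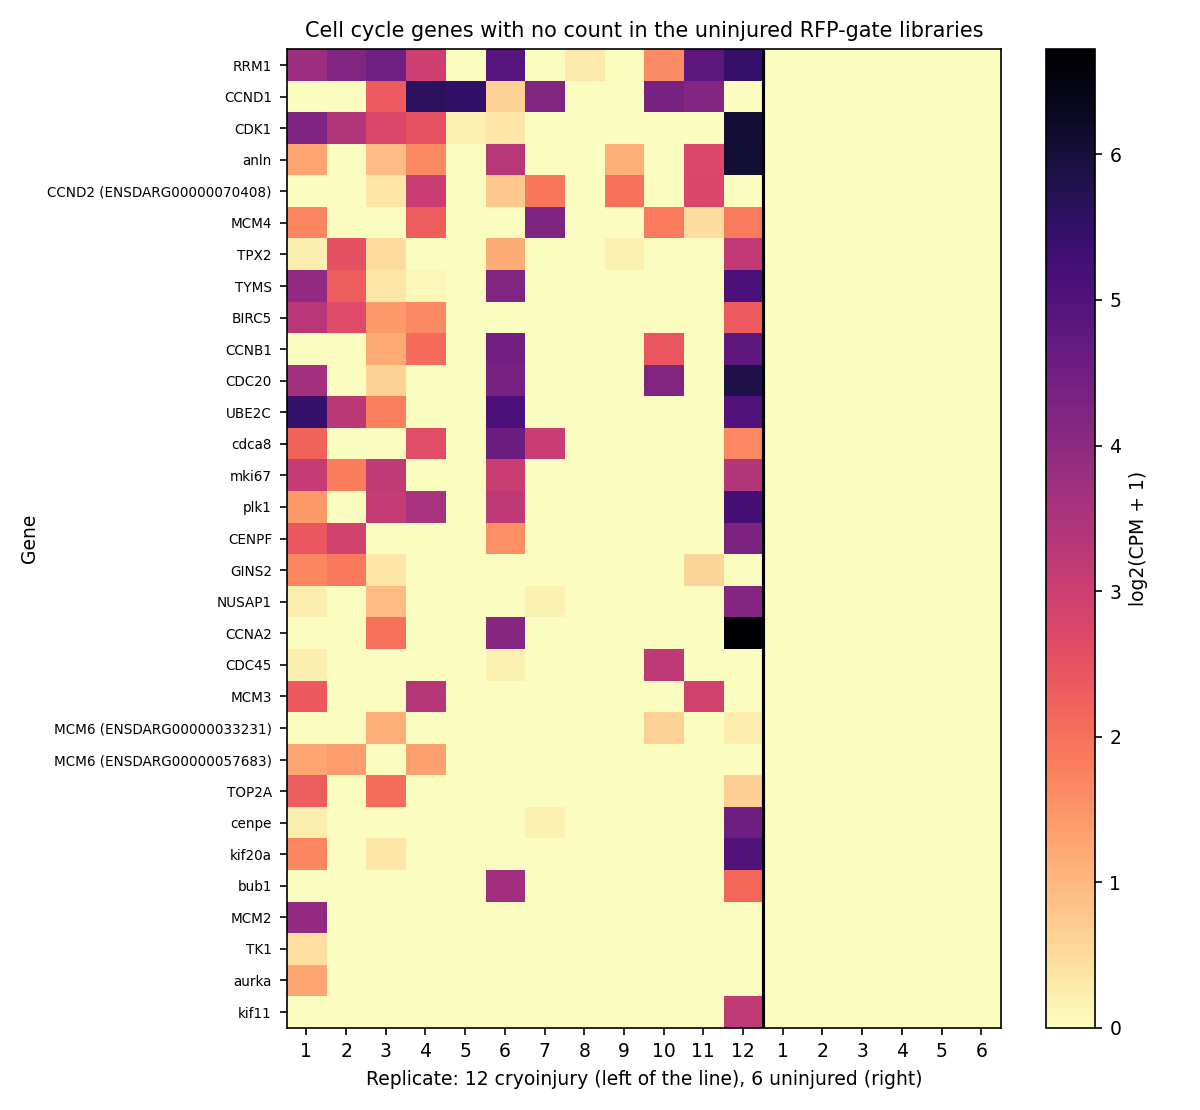
Level as log2(CPM + 1) of the 31 cell cycle genes that had a count in a cryoinjured RFP-gate tube and none in the 6 uninjured ones, genes down the page by the number of tubes with a count and tubes across. Replicates 1 and 12 hold 24 and 22 of the genes, and replicate 8 holds 1.

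Matrix genes were higher in the cryoinjured tubes that also held fibroblast markers. The fibroblast and epicardial markers summed above include COL1A2 and periostin, which are matrix genes themselves, so this match is in part built in. Of 64 listed matrix genes 57 were tested, with a median log2 fold change of 2.81 on group means and 55 of 57 positive. Once detected genes were in the fit the median was 0.43, with 33 positive. Of all tested genes, 69.4% and 44.2% were positive in the 2 fits. None of the matrix genes passed in edgeR. On group means 11 were higher and none lower at an unadjusted p under 0.05, against 15.8% and 1.11% of all tested genes. With detected genes 4 were higher and 1 lower, against 6.07% and 8.89%. On group means limma-voom called 4 and DESeq2 10 higher, against 3.53% and 6.52% of the genes given an adjusted p by each. With detected genes limma-voom called none. DESeq2 called 4 of the 57 higher and 2 lower, against 684 higher and 787 lower among all 14853 genes. CTHRC1 (ENSDARG00000087198), a secreted protein of injured connective tissue, came first by p, with a count in 5 of 12 cryoinjured tubes, up to 142 CPM, and none in the 6 uninjured ones (edgeR adjusted p = 0.0912 and 0.275). COL6A2, a chain of collagen VI, ran from 0 to 205 CPM with a median of 24.5 after cryoinjury and from 0 to 3.40 with a median of 0 without injury (edgeR adjusted p = 0.0912 and 0.0909). POSTN (ENSDARG00000104267), periostin, ran from 0 to 3447 CPM with a median of 338, against 0 to 20.9 with a median of 0 (edgeR adjusted p = 0.148 and 0.511). The list took 0.00907% to 9.94% of the counts in cryoinjured tubes and 0.0590% to 1.00% in uninjured ones, and the highest tube, cryoinjured replicate 11, was also the highest for fibroblast and epicardial markers, at 24733 CPM, and the lowest for cardiomyocyte markers, at 1189 CPM. PRRX1 (ENSDARG00000033971), a fibroblast transcription factor, had a count in 6 of 12 cryoinjured tubes and 0 of 6 uninjured ones (edgeR adjusted p = 0.0796 and 0.243). The part of fibroblast RNA in these values was not tested.

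Of the signals known in heart regeneration, receptors stood first by p. The list had 60 of 77 genes tested, with medians of 1.01 on group means and 0.05 with detected genes. No member passed the threshold in edgeR. At an unadjusted p under 0.05 on group means, 12 of the 60 were higher and none lower, against 15.8% and 1.11% of all tested genes. With detected genes 4 were higher and 3 lower, against 6.07% and 8.89%. On group means limma-voom called 3 and DESeq2 4 higher, against 3.53% and 6.52% of the genes given an adjusted p by each. With detected genes limma-voom called none. DESeq2 called 3 of the 60 higher and 3 lower, against 684 higher and 787 lower among all 14853 genes. TGFBR1 (ENSDARG00000042259), a TGF-beta receptor kinase, had a count in 10 of 12 cryoinjured tubes, at 0 to 91.5 CPM with a median of 11.03, and in 0 of 6 uninjured ones, at least 328-fold higher by the means (edgeR adjusted p = 0.0796 and 0.104). In the tubes of 8000 to 12000 genes it had a count in 6 of 6 and 0 of 3. The retinoic acid receptor rarab had a count in 11 of 12 cryoinjured tubes, at 0 to 70.5 CPM with a median of 11.3, and in 1 of 6 uninjured ones, at 0.340 CPM (edgeR adjusted p = 0.0912 and 0.0781).

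Sarcomere and calcium handling genes lay near or above the median of all genes. Of 57 sarcomere genes 50 were tested, with medians of 1.18 and 0.70 in the 2 fits, none called. SMYD1 (ENSDARG00000009280), a muscle methyltransferase needed to assemble myosin, was first by p, with counts in 6 of 12 cryoinjured tubes up to 5.95 CPM and in none of the uninjured ones (edgeR adjusted p = 0.0912 and 0.299). ACTC1, cardiac actin, ran from 12.9 to 15632 CPM with a median of 3763, against 0.224 to 2293 with a median of 162 (edgeR adjusted p = 0.409 and 0.403). Calcium handling and excitation genes, 25 of 33 tested, had medians of 0.86 and 0.27, and GJA5 was the member that passed. Cardiac transcription factors, 30 of 40 tested, had medians of 0.87 and 0.35 and none called. TBX5 ran from 4.89 to 92.7 CPM with a median of 38.0, against 0 to 65.7 with a median of 7.37, and TBX20 from 32.1 to 336 CPM with a median of 165, against 0 to 112 with a median of 39.7. Neither passed (edgeR adjusted p = 0.888 and 0.543 on group means).

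The natriuretic peptides, hormones that stretched or injured heart muscle releases, did not pass the test, and their ranges overlapped. The gene nppa ran from 53.4 to 6455 CPM with a median of 1186 after cryoinjury and from 37.9 to 2633 with a median of 442 without injury, a log2 fold change of 1.25 ± 0.785 (SE; edgeR adjusted p = 0.504). The gene nppb ran from 37.5 to 8817 CPM with a median of 2326, against 0.316 to 2096 with a median of 662 (log2 fold change 1.81 ± 1.40, edgeR adjusted p = 0.698). Another peptide gene, nppal, had counts in 3 of 12 cryoinjured tubes, up to 9.78 CPM, and in 3 of 6 uninjured ones, up to 162 CPM, and was the first by p of its list (log2 fold change −4.76 ± 1.67, edgeR adjusted p = 0.0912). The list of natriuretic peptides, dedifferentiation and border zone genes had 34 of 41 tested and medians of 1.01 and −0.46.

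Stress genes were mixed. ATF3, an early stress factor, ran from 34.8 to 1970.1 CPM with a median of 528, against 0 to 237 with a median of 107 (edgeR adjusted p = 0.0939 and 0.242). The heat shock protein gene hsp90aa1.1 ran from 113 to 17248 CPM with a median of 4985, against 3.64 to 4339 with a median of 452 (edgeR adjusted p = 0.195 and 0.333). The list of immediate early and heat shock genes, 41 of 44 tested, had medians of 0.73 and 0.19, and that of hypoxia genes, 26 of 28 tested and headed by VEGFA, −0.02 and −0.65. Those of the unfolded protein response, 30 of 31 tested, were at 0.80 and −0.26. No member of these 3 lists passed in edgeR.

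Of all lists, the mitochondrially encoded genes had the lowest median on group means, but not with detected genes in the fit. All 13 mitochondrially encoded genes were tested and had negative log2 fold changes on group means, with a median of −1.03, while 4 of 13 were positive and the median −0.28 with detected genes in the fit. MT-CO2, a subunit of cytochrome oxidase, was first by p, at 1409 to 48850.1 CPM with a median of 9279 after cryoinjury and 7129.7 to 94107 with a median of 41643 without injury (log2 fold change −1.30 ± 0.552, edgeR adjusted p = 0.148, and 0.788 with detected genes). The nuclear genes of oxidative phosphorylation, 85 of 87 tested, had medians of −0.10 and −0.38, ribosomal protein genes, 80 of 82 tested, −0.42 and −0.79, glycolysis, 32 of 37 tested, 0.79 and 0.77, and fatty acid oxidation, 40 of 41 tested, 0.99 and 0.41. None of these genes passed in edgeR. On group means DESeq2 put 3 of the 13 mitochondrial genes lower, against 27 among all 14853 genes. The mitochondrial share also moved with the level of MYH7. In the high-MYH7 tubes it was 8.27% to 11.02% of the counts after cryoinjury and 8.43% to 22.9% without injury, the highest being uninjured replicate 5, the tube of fewest genes. In the others it was 1.21% to 9.53% after cryoinjury and 2.77% and 5.80% without injury. The part of the MYH7 level in the difference was not tested for this share.

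Of the lists that mark other cells, all but that of glia and pigment cells had a median below that of all genes with detected genes in the fit. Leukocyte and inflammation genes, 60 of 78 tested, had medians of 0.03 and −3.38 in the 2 fits, endothelial and endocardial genes, 36 of 38 tested, 0.09 and −1.18, and epicardial and fibroblast genes, 31 of 35 tested, 0.55 and −1.17. None of their members passed in edgeR. With detected genes DESeq2 called 5 leukocyte genes higher and 14 lower, 4 and 4 endothelial ones, and 2 and 3 epicardial ones. Among all 14853 genes it called 684 higher and 787 lower. Leukocyte genes took 0.740% ± 0.640 of the counts in cryoinjured tubes and 0.619% ± 0.623 in uninjured ones (SD, n = 12 and 6; exact permutation p = 0.738). The first by p were CLDN5 (ENSDARG00000043716), a tight junction protein, with counts in 8 of 12 cryoinjured tubes and 0 of 6 uninjured ones, and tnfa, an inflammatory cytokine, with counts in 3 of 12, up to 145 CPM, and 0 of 6 (edgeR adjusted p = 0.0912 for each on group means). Neural crest genes, 16 of 30 tested, had medians of 1.38 and −1.04, and glial and pigment cell genes, 10 of 29 tested, 1.43 and 0.42. PAX7 (ENSDARG00000100398), a crest and pigment cell factor, had counts in 4 of 12 cryoinjured tubes, up to 7.09 CPM, and gch2, which makes a cofactor of pigment synthesis, in 6 of 12, up to 57.6 CPM, with none in the uninjured tubes (edgeR adjusted p = 0.0939 and 0.0912 on group means). The 7 tested erythrocyte genes had medians of −0.08 and −1.65 and the 5 thrombocyte genes 0.18 and −2.11.

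Lists of protein turnover and redox control had medians of opposite sign in the 2 fits, as did all tested genes, at 0.75 and −0.32. The change of sign is thus not particular to these lists. Proteasome and ubiquitin genes, 49 of 49 tested, had medians of 0.36 and −0.44, lysosome and autophagy genes, 49 of 50 tested, 0.77 and −1.23, antioxidant genes, 39 of 44 tested, 0.82 and −0.54, and actin and adhesion genes, 51 of 54 tested, 0.32 and −0.47. Translation factors, 43 of 46 tested, had 0.43 and −0.29. No member of these lists passed in edgeR. FBXO32, a muscle ubiquitin ligase known from atrophy, had counts in all 12 cryoinjured tubes, at 7.08 to 569.8 CPM with a median of 56.4, and in 3 of 6 uninjured ones, at 0 to 26.7 CPM with a median of 0.180 (edgeR adjusted p = 0.178 and 0.407).

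**Figure D5:**
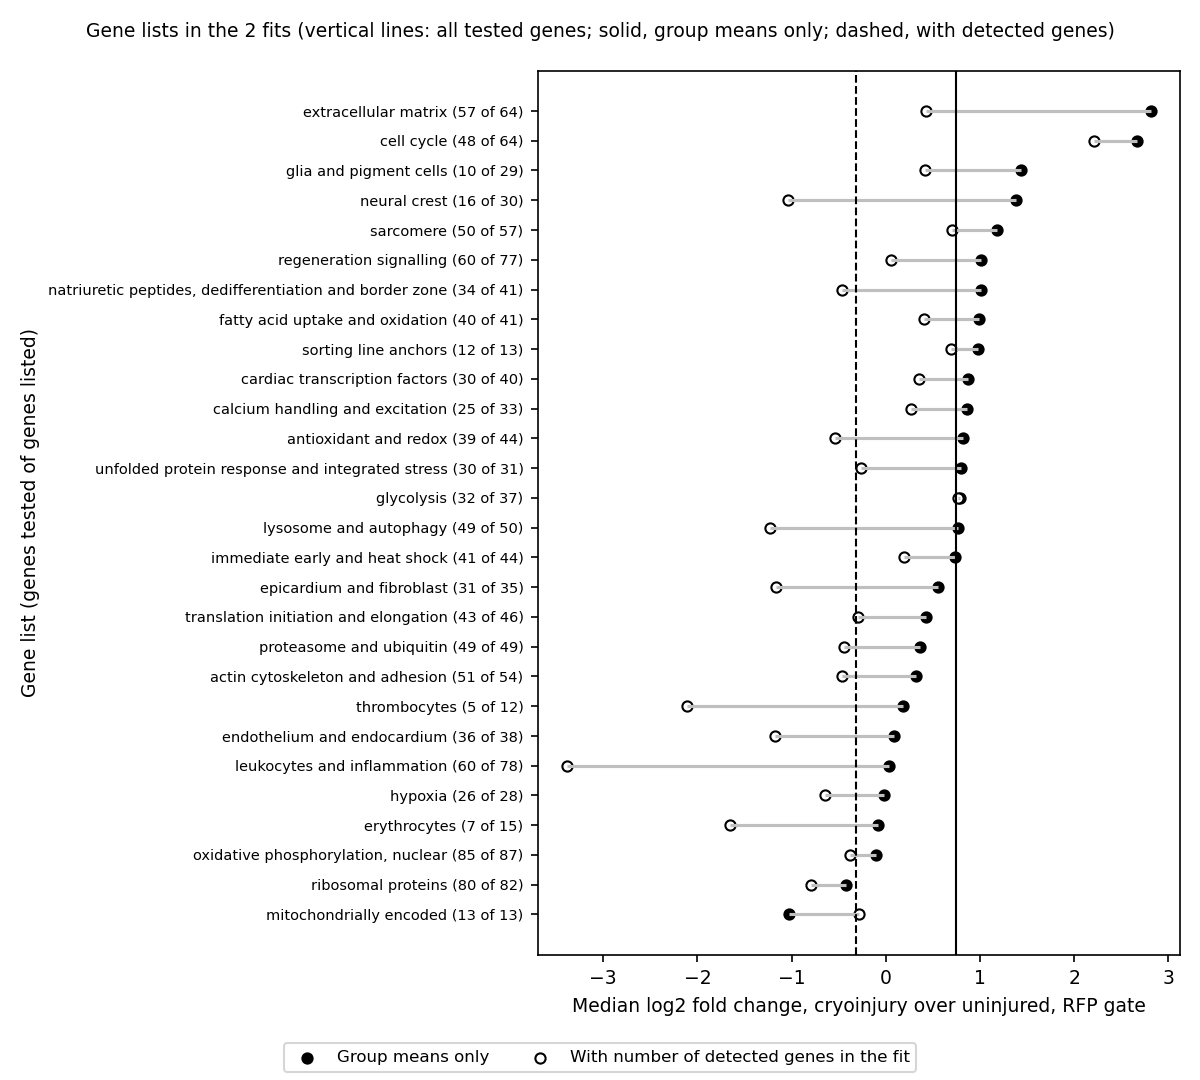
Median log2 fold change of each gene list, cryoinjury over uninjured RFP-gate tubes, from group means (filled) and with the number of detected genes in the fit (open), with vertical lines at the medians of all tested genes, 0.75 and −0.32. Cell cycle genes are highest with detected genes in the fit, at 2.21, matrix genes are at 2.81 and 0.43 in the 2 fits, and leukocyte genes at 0.03 and −3.38.

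The response to injury was also compared between the RFP and BFP gates. On group means, the interaction of gate and injury passed in edgeR for 0 of 14853 genes, or 0%. At an unadjusted p under 0.05, 1267 (8.53%) were positive and 434 (2.92%) negative, and the median of all tested genes was 0.81. With detected genes in the fit none passed, 1218 were positive and 942 negative at that p, and the median was 0.23. The values of single genes that follow are on group means. For gbp the interaction was 10.90 on the log2 scale (edgeR adjusted p = 0.253), for GJA5 5.15 (1.00), for zfyve16 4.82 (0.548), for klhl35 13.13 (0.253) and for VEGFA 6.53 (0.337). With 3 cryoinjured and 4 uninjured BFP-gate tubes, none of the changes above can be called particular to the RFP gate.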

How the data were processed

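Each library held counts of reads per gene, deposited by the authors as 1 table per sample in whole numbers. Per the submitters' processing notes, FastQC 0.11.5, HISAT2 2.1.0, featureCounts 1.6.0 and build GRCz11 were used, in an order and with settings not given in the sources used here. Names were matched for 29178 of 31901 gene IDs.

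Counts were filtered with filterByExpr and scaled by TMM in edgeR 4.0.16 (R 4.3.3). Quasi-likelihood tests with Benjamini-Hochberg adjustment used 4 group means over 25 libraries, alone or with the log2 number of detected genes as a covariate. Library measures were compared with exact permutation tests over all 18564 regroupings (scipy 1.17.1). Limits for a count of 0 take 3 counts over the group and cover counting error only.

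Genes were named by rule: in each fit the 8 of smallest p per direction among those called with a count in 75% of the libraries of the higher group, at least 3 per direction being named, plus the first by p of each list described, up to 3 called members of it, and fixed heart genes. The members and lists were chosen with earlier results of these data known. Alternatives were DESeq2 1.42.0, limma-voom 3.58.1, other scalings, filters, covariates and library sets. Of the genes chosen by this rule, 1 is not reported here.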

Additional observations from a re-analysis of the deposited data

Results flagged for a closer look

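Of the library measures and named genes checked in the 6 uninjured RFP-gate tubes, 7 had a tube far from the others by Dixon's criterion. In all 76 were checked, and the group of 12 is too large for this criterion. For normally spread values chance alone marks about 1 group in 20. A gene with a count in only 1 of the 6 tubes is marked at any level, so that rate does not hold for such genes below. Uninjured replicate 6 held 0.552% of its counts in endothelial and endocardial genes and 0.245% in hypoxia genes, each the highest of its group. The same tube had 0.113 CPM of ITGB1 (ENSDARG00000053232), an integrin chain, where the others had none. Uninjured replicate 5 had 1076 CPM of GSK3B. Uninjured replicate 2 had its group's only counts of SLC2A1 (ENSDARG00000001437), a glucose transporter, at 0.658 CPM, and of GP1BB, a platelet receptor chain, at 0.132 CPM. Uninjured replicate 3 had its group's only counts of gpx1b, a glutathione peroxidase, at 24.5 CPM.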

How the results depend on the processing

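No paired analysis was possible because the replicate numbers follow accession order and no library number is shared between groups. On group means, where 4 genes were called, DESeq2 called 861, no filter on low counts gave 513 and limma-voom 525. There were 0 with at least 10 counts asked in 12 of the 18 RFP-gate libraries, without the 2 libraries under 5000 detected genes, with 8000 to 12000 detected genes only, and without the 5 RFP-gate libraries under 6000. The 18 RFP-gate libraries alone gave 6, all higher, and leaving out 1 library gave 0 to 160. With detected genes in the fit, where 35 were called, DESeq2 called 1471, no filter gave 638, DESeq2 size factors 22 (5 higher), library totals 54 (10 higher) and limma-voom 17. The 18 RFP-gate libraries alone gave 1, those of at least 5000 genes 4, and the top-50 share as covariate 2. The strict filter, both remaining choices of libraries and a slope for each injury state gave 0, and leaving out 1 library gave 0 to 40 higher and 5 to 153 lower, the highest of both without cryoinjured BFP-gate replicate 2. The interaction had 2 calls with no filter, 1 in the 8000 to 12000 range, and 0 to 1 with 1 library left out. Of the 28 lists, 15 had a median above that of all genes on group means, against 9 with no filter, 8 with DESeq2 size factors and 9 with library totals. The cell cycle share differed by 0.00226 percentage points without CCNG1, and by 0.0844 to 0.103 with 1 library left out. With CCNG1 and 1 library left out it differed by −0.00745 to 0.0218, the highest without uninjured replicate 5. The choices of 8000 to 12000 genes, of the 5 libraries and of CCNG1 were made after seeing the data.

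Of 3233 alternatives over 90 gene results, 3025 kept direction and side of the threshold and 41 changed direction, all in the genes that follow (log2 fold changes). GSK3B was 0.03 in limma-voom, 1.74 without libraries under 5000 genes, 1.46 in the 8000 to 12000 range, 1.2 without the 5 libraries and −5.33 to 1.61 with 1 library left out. With detected genes it was −0.16 in limma-voom, −0.45 in that range, −2.39 with the top-50 covariate and −0.06 with a slope by injury. KPNA1 was 0.98 in that range and 0.73 without the 5, and with detected genes 0.04 with no filter, 0.63 in 18 libraries, 1.39 in the range and −3.45 to 0.39 with 1 left out. On group means krt8 was −0.41 with the myosin ratio as covariate and −0.40 in the range. With detected genes MT-CO2 was 0.19 without libraries under 5000 genes, 1.69 in the range, 0.43 without the 5 and −0.78 to 0.15 with 1 left out, GP1BB −0.05 with the myosin ratio, myh6 −1.95 without libraries under 5000 genes and −8.33 in the range, TBX20 −0.40 without the 5 and EIF4G2 (ENSDARG00000020377) −0.02 to 1.73. In limma-voom SOX10 was 0.13, MYL7 −0.09 and MYH7 −4.63, or −3.77 with detected genes. With 1 library left out SOX10 ran from −1.96 to 0.80 and gpx1b from −6.38 to 2.7, or −8.27 to 1.52 with detected genes. Where a cause is not shown by the construction of the alternative, the cause was not tested. Thinning all libraries to the smallest total left a difference of 4292 detected genes, against 4351 at full depth.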
